A study of Mus musculus with 12 samples.

Results

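Islets of beta-cell Bmal1 knockout mice taken 4 weeks after streptozotocin (STZ) were compared with islets of the same genotype taken after vehicle. The comparison uses 4 of the series' 12 RNA sequencing libraries, chosen by their labels: libraries A and B of knockout STZ 4 wk and libraries A and B of knockout vehicle. All 24421 genes of the count table belong to it, and 17411 of them had enough counts to be tested. Mice of both groups carry floxed Bmal1 and 1 copy of RIPCreERT, a Cre recombinase fused to an oestrogen receptor and driven by the rat insulin promoter, so both groups share the deletion and the transgene. STZ was given at a submaximal dose, and vehicle was citrate buffer. Islets of the vehicle group were taken at 24 h, not at 4 weeks, and treatment, age since injection and time of collection therefore cannot be told apart. Control mice carry floxed Bmal1 without Cre and were given the same treatments, with 2 libraries for STZ 4 wk and 2 for vehicle. Whether libraries A and B of a group came from different mice is not stated in the labels. The p-values reflect the spread from library to library pooled over all 6 groups, part of which may be technical.

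STZ is an alkylating sugar that enters beta cells through the glucose transporter GLUT2, damages DNA and drains NAD, and kills part of the beta cells. Islets that survive such an injury are known to lose insulin-granule and glucose-sensing transcripts, to attract macrophages and, in some models, to express genes that mature beta cells normally keep silent. BMAL1, encoded by Arntl, pairs with CLOCK, binds E-box motifs and drives the daily rhythm of Per, Cry, Nr1d1 and Dbp, and in beta cells it is known to support insulin secretion and the defence against oxidants.

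Levels are CPM, counts scaled to a common library size, with TMM, a method that assumes no change in most genes. Total counts were 106433964 and 126637768 in STZ 4 wk libraries A and B, against 114294922 and 101772241 in vehicle libraries A and B. The libraries of both groups differed from each other by far more than counting error, with a chi-square over degrees of freedom of 462 between A and B in STZ 4 wk and of 266 in vehicle. The gap went with GC content and ran in opposite directions. In STZ 4 wk the median gene with GC over 60% was higher in B than in A by 1.04 on the log2 scale, and in vehicle the same genes were lower in B by a log2 value of -0.65. Genes under 40% GC lay the other way, at -0.57 in STZ 4 wk and 0.46 in vehicle. Values of A and B are therefore given side by side.

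**Figure D1:**
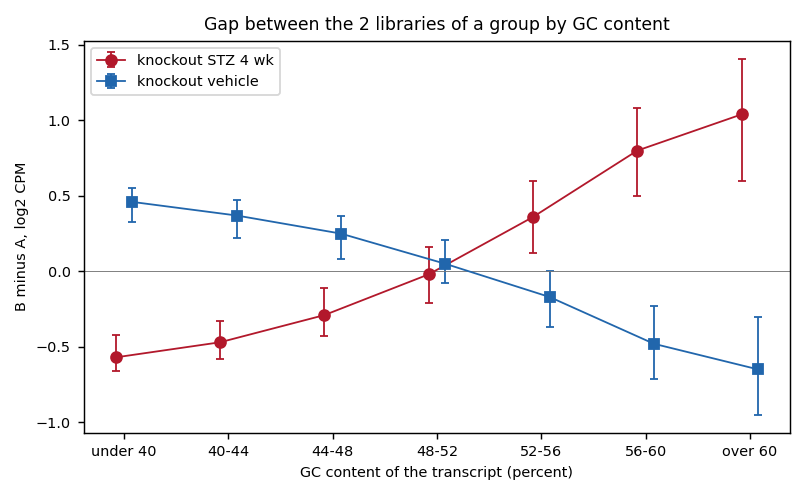
Difference between library B and library A (vertical axis, log2 CPM) by GC content of the transcript (horizontal axis, percent) in knockout STZ 4 wk (circles) and knockout vehicle (squares); points are medians over genes and bars run between the quartiles. The gap rises with GC to 1.04 in STZ 4 wk and falls to -0.65 in vehicle.

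Ins1, Ins2, Gcg, Sst and Ppy, the hormones that define islet cells, were found in all 4 libraries. Arntl (chr7:113207465-113314126, mm10) had 11.3 and 11.6 CPM in STZ 4 wk libraries A and B, against 17.8 and 19.9 CPM in vehicle, a log2 fold change (log2) of -0.72 ± 0.11 (SE, adjusted p = 0.000938; 0.03 under the pan-endocrine scaling defined below). Its exon 8, a coding exon at chr7:113284999-113285156, had 1.01 and 0.691 times the coverage of the whole transcript in STZ 4 wk, and 0.627 and 0.671 times in vehicle. The 4 control libraries of STZ 4 wk and vehicle lay between 1.56 and 1.99, above all 4 knockout libraries, and RNA of islet cells in which the insulin promoter does not drive Cre is included in every value. Esr1, part of whose sequence the CreERT fusion carries, had 118 and 130 CPM in STZ 4 wk and 359 and 323 CPM in vehicle (log2 -1.46 ± 0.18, adjusted p = 0.000245). In control islets Esr1 stayed between 0.706 and 0.978 CPM, so reads of Esr1 went with the transgene's genotype.

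Of 17411 genes tested, 4199 were higher (24.1%) and 2045 lower (11.7%) in STZ 4 wk than in vehicle at an adjusted p under 0.05. These percentages are the background for every count below from this fit and comparison. Since a lost cell type lowers its own genes and raises the share of all others, the scaling decides part of this split. Scaled to total counts, 3667 were higher and 4409 lower, with the median of all genes at -0.22 in place of 0.02. Scaled to 25 pan-endocrine genes of the secretory granule and of endocrine fate, 9298 were higher and 43 lower, with the median gene at 0.76. With an offset for GC content 4642 were lower. Without vehicle library B 1006 were lower, and a fit of only these 4 libraries found 2772 higher and 207 lower. The median log2 of a group under pan-endocrine scaling is given as "endocrine", and in bulk islets fewer cells of a type and less RNA per cell cannot be told apart. Groups of granule and endocrine-fate genes are of the same kind as the 25 scaling genes. Their endocrine values therefore lie near 0 in part by construction and are not an independent check.

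**Figure D2:**
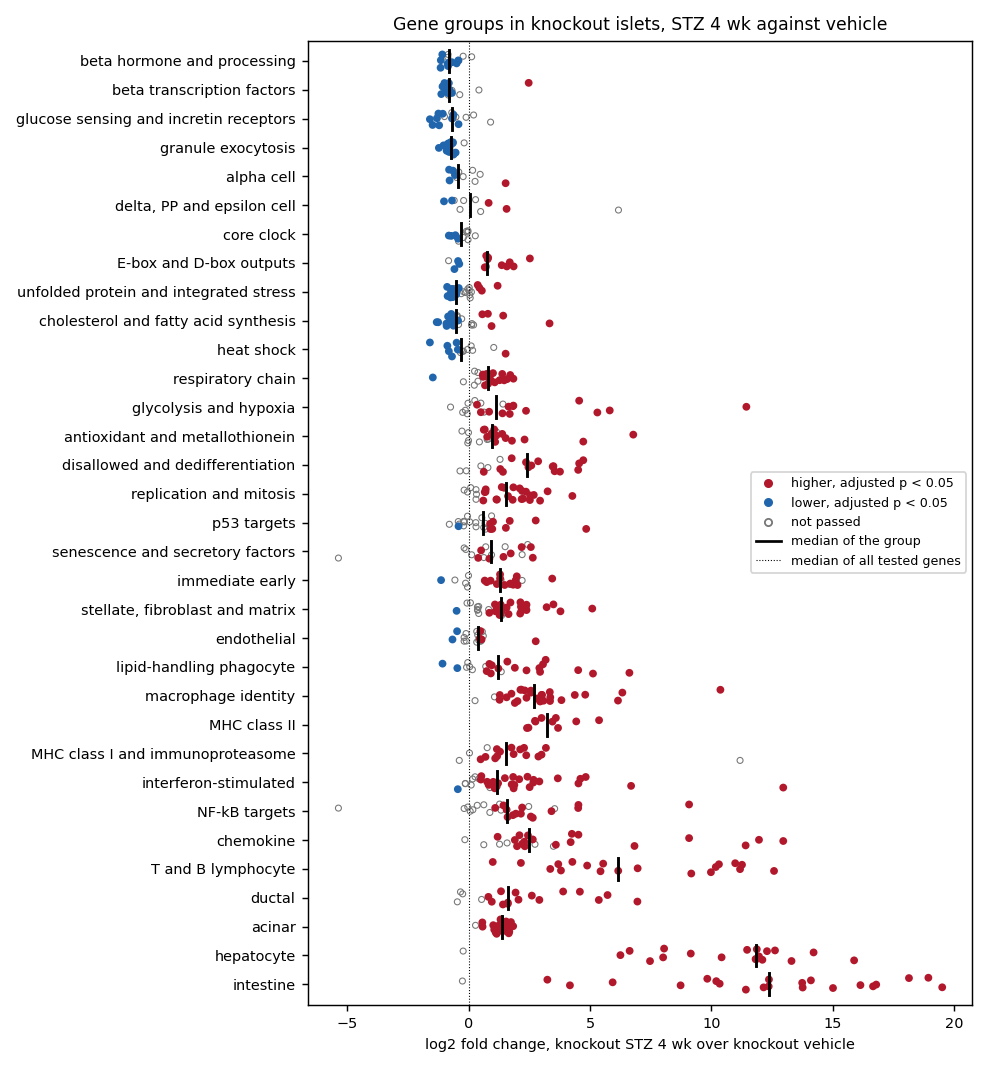
Log2 fold change of knockout STZ 4 wk over knockout vehicle (horizontal axis) for the tested members of 33 gene groups (rows); filled points passed an adjusted p of 0.05, open points did not, and bars mark group medians. Beta-cell groups lie left of the median of all genes at 0.02 (near 0 under pan-endocrine scaling), and immune, acinar, liver and intestinal groups lie right of it.

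Genes that make beta cells what they are were lower 4 weeks after STZ, though the insulin genes themselves did not pass. Of 14 hormone and processing genes 9 fell and 0 rose (median log2 -0.81, endocrine -0.06 with 0 lower). Slc30a8 (chr15:52295553-52335733), the zinc transporter that loads insulin granules, had 412 and 364 CPM in STZ 4 wk libraries A and B, against 828 and 902 CPM in vehicle (log2 -1.16 ± 0.11, adjusted p = 4.68e-05). Iapp, which encodes the amyloid peptide secreted with insulin, had 11317 and 9860 CPM in STZ 4 wk and 19046 and 19196 CPM in vehicle (log2 -0.85 ± 0.11, adjusted p = 0.000288). Both genes were lower in both STZ libraries, with no overlap. The prohormone convertase Pcsk2 (log2 -0.87), its relative Pcsk1 (-1.09) and Ero1lb, an oxidase that folds proinsulin (-1.15), fell as well, with adjusted p of 0.000363, 0.00133 and 0.000855. Ins2 had 22211 and 48540 CPM in STZ 4 wk, against 80394 and 46830 CPM in vehicle (log2 -0.85 ± 0.40, adjusted p = 0.141). Ins1 had 10367 and 18961 CPM in STZ 4 wk, against 23835 and 15104 CPM in vehicle (log2 -0.41 ± 0.32, adjusted p = 0.364). The groups overlapped for both insulin genes. At 24 h after STZ the knockout islets had held less of these transcripts, for example 161 and 148 CPM of Slc30a8: at 4 wk 13 of the 14 genes were higher than at 24 h and 0 lower (median log2 1.36, endocrine 0.19), where 20.2% of all tested genes were higher and 15.5% lower (3512 and 2699 genes). Pan-endocrine scaling turned that background to 574 higher and 11321 lower, total-count scaling to 5285 and 2074, and without STZ 24 h A or B the higher calls fell to 2264 or 2122.

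Among 17 beta-cell transcription factors 11 fell and 1 rose (median log2 -0.82, endocrine -0.08 with 0 lower). Myt1, a zinc-finger factor of endocrine fate, had 41.2 and 42.7 CPM in STZ 4 wk and 80.7 and 83.7 CPM in vehicle (log2 -0.97 ± 0.09, adjusted p = 2.77e-05). Pax6 (log2 -0.84), Foxa2 (-0.69) and Neurod1 (-1.13), which hold endocrine identity, fell with adjusted p of 0.000202, 0.000293 and 0.000902 (endocrine 0.05 for Foxa2). Pdx1, the master regulator of the insulin gene, had 13.0 and 21.6 CPM in STZ 4 wk and 33.0 and 28.3 CPM in vehicle (log2 -0.82 ± 0.23, adjusted p = 0.0227). That call ended without vehicle A or STZ 4 wk A. Nkx6-1 (log2 -0.84, adjusted p = 0.0707) and Mafa (log2 -0.69, adjusted p = 0.664) did not pass. Mafa is GC-rich and low, with 0.284 and 2.88 CPM in STZ 4 wk and 4.13 and 1.01 CPM in vehicle. The single riser was Hnf4a, at 134 and 145 CPM in STZ 4 wk and 24.2 and 26.1 CPM in vehicle (log2 2.47 ± 0.11, adjusted p = 3.29e-07). Liver and intestine express Hnf4a too, and their markers rose in the same libraries, as given below; their part in this value was not tested.

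The glucose-sensing and incretin group of 17 genes had 9 lower and 0 higher (median log2 -0.69, endocrine 0.05 with 2 higher and 4 lower). Trpm5 (chr7:143071529-143094642), a calcium-activated channel that shapes insulin secretion, had 32.4 and 35.7 CPM in STZ 4 wk, against 105 and 101 CPM in vehicle (log2 -1.60 ± 0.10, adjusted p = 2.13e-06). Glp1r, the GLP-1 receptor, had 38.4 and 41.0 CPM in STZ 4 wk, against 98.3 and 87.2 CPM in vehicle (log2 -1.22 ± 0.10, adjusted p = 1.64e-05). Ucn3, a hormone of mature beta cells, had 96.6 and 125 CPM in STZ 4 wk, against 335 and 288 CPM in vehicle (log2 -1.49 ± 0.16, adjusted p = 9.49e-05). These 3 genes fell beyond the endocrine transcripts as a whole, with values under pan-endocrine scaling of -0.86 for Trpm5, -0.48 for Glp1r and -0.75 for Ucn3, each past the threshold. The calcium channel gene Cacna1c fell too (log2 -1.07, adjusted p = 3.85e-05). Slc2a2, which encodes GLUT2, was at 499 and 440 CPM in STZ 4 wk and 585 and 668 CPM in vehicle (log2 -0.42 ± 0.12, adjusted p = 0.026; endocrine 0.34). The call for Slc2a2 ended without vehicle B or STZ 4 wk B. Liver and intestinal markers rose in the same libraries, as given below, and their part in the value of Slc2a2 was not tested.

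Of 18 genes of granule exocytosis 14 fell and 0 rose (median log2 -0.73, endocrine 0.01 with 0 lower). Cadps, which primes granules, had a log2 of -1.04 ± 0.11 (adjusted p = 9.38e-05), and the granule phosphatase Ptprn2 of -0.83 ± 0.10 (adjusted p = 0.000197). The SNARE Vamp2 (log2 -0.74, endocrine 0.01) and the synaptotagmin Syt13 (-0.66, endocrine 0.08) passed with adjusted p of 0.000336 and 0.000807. In a fit of only these 4 libraries 4 of these 18 genes passed, and 3, 5 and 6 of the hormone, factor and sensing genes. These counts are not split by direction. In that fit 2979 of all 16667 genes tested passed, 2772 higher and 207 lower. Whether the groups differ from that share was not tested.

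Other endocrine cells gave a mixed result. Gcg, the glucagon gene of alpha cells, had 20034 and 19723 CPM in STZ 4 wk, against 33429 and 35453 CPM in vehicle (log2 -0.79 ± 0.09, adjusted p = 0.000138; -0.04 under pan-endocrine scaling). The alpha group of 12 genes had 4 lower and 1 higher (median log2 -0.45, endocrine 0.30), with Irx2 at -0.81 and Slc7a2 at -0.65 (adjusted p = 0.00513 and 0.0205, endocrine 0.11 for Slc7a2) among the 4. The call for Slc7a2 ended without vehicle B or STZ 4 wk B. The riser was Gc, the vitamin D binding protein, which liver makes in bulk (369 and 302 CPM in STZ 4 wk, against 108 and 126 CPM in vehicle, log2 1.52). Sst, the delta-cell hormone, had 299 and 498 CPM in STZ 4 wk and 516 and 403 CPM in vehicle and did not pass (log2 -0.21 ± 0.26, adjusted p = 0.581). Of 10 delta, PP and epsilon genes 2 rose (Lepr 1.56 and Rbp4 0.82) and 2 fell (Ghsr -1.02 and Sstr3 -0.69, the last 0.04 under pan-endocrine scaling and without its call when vehicle A or STZ 4 wk A was left out). The calls for Rbp4, Ghsr and Sstr3 ended in a fit of only the libraries compared. Liver markers rose in the same libraries, as given below, and their part in Rbp4 and Lepr was not tested.

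With TMM, calls among core clock genes were falls and most calls among clock outputs were rises. Of 12 core clock genes 4 fell and 0 rose (median log2 -0.32, endocrine 0.46 with 5 higher), and of 14 outputs driven through E-boxes and D-boxes 9 rose and 3 fell (median log2 0.75, endocrine 1.5). Nfil3, a repressor of D-box genes, had 21.0 and 25.3 CPM in STZ 4 wk and 41.9 and 40 CPM in vehicle (log2 -0.82 ± 0.14, adjusted p = 0.00156). The call for Nfil3 ended under pan-endocrine scaling and in a fit of only the libraries compared. Beside Arntl, the CLOCK and BMAL1 repressor Cry1 (log2 -0.44, endocrine 0.31) fell too, a call that ended without vehicle B, STZ 4 wk A or STZ 4 wk B. Dbp, a D-box activator and direct BMAL1 target, had 15 and 24.1 CPM in STZ 4 wk, against 6.79 and 5.34 CPM in vehicle (log2 1.69 ± 0.26, adjusted p = 0.00108); its exons overlap those of Sphk2. Nr1d1, which encodes the repressor REV-ERBα, had 23.7 and 49.2 CPM in STZ 4 wk, against 7.74 and 4.98 CPM in vehicle (log2 2.52 ± 0.40, adjusted p = 0.00124). Bhlhe40 (log2 1.57, adjusted p = 2.54e-06), Usp2 (1.85, 0.000691), Tef (0.66, 0.000327) and Nr1d2 (1.36, 0.00363) rose with them, with no overlap between groups. Bhlhe41 (-0.59), Cry2 (-0.44) and Per2 (-0.39) fell, but turned positive under pan-endocrine scaling (0.17, 0.30 and 0.36), and each call ended without 1 of 2 or 3 single libraries. The labels give no hour of collection, so time of day cannot be told apart from treatment here. Liver, intestinal and acinar markers rose in the same libraries, as given below, and their part in the clock genes and outputs was not tested.

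Promoters of a riser and of a faller among these outputs are shown because both carry the E-box that CLOCK and BMAL1 bind. RefSeq promoter windows of GRCm38.p6, from 250 bases before to 50 after each start, were matched for 11 of the 14 outputs, and CACGTG (the same on both strands) was found in 4 of them, Bhlhe41, Ciart, Per1 and Tef, against 8.09% of all 27025 gene symbols. The D-box TTATGNAA, on either strand, was in Per1 and Per3, 2 of the 11, against 3.99% of all symbols. In the stretches below, read 5′ to 3′ on the gene's strand, capitals mark CACGTG.
Tef (chr15:81802511-81802586, plus strand): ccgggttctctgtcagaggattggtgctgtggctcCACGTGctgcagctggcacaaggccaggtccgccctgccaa
Bhlhe41 (chr6:145865533-145865608, minus strand): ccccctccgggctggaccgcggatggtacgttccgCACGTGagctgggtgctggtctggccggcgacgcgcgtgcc
Both stretches hold 1 such E-box, 127 and 153 bases before the start, while the transcripts moved in opposite directions with TMM. The fall of Bhlhe41 lost its call without vehicle B or STZ 4 wk B and turned positive under pan-endocrine scaling. Of the 4 outputs with CACGTG 1 rose and 1 fell, and of the other 7 outputs 6 rose.

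Endoplasmic reticulum chaperones fell. Of 29 genes of the unfolded protein and integrated stress response 14 fell and 4 rose (median log2 -0.51, endocrine 0.25 with 10 higher and 0 lower). Sdf2l1 (chr16:17130138-17132383), a chaperone partner of BiP, had 35.5 and 38 CPM in STZ 4 wk, against 69.5 and 66.3 CPM in vehicle (log2 -0.89 ± 0.09, adjusted p = 8.97e-05). Pdia6 (log2 -0.73), Pdia4 (-0.74) and Calr (-0.61), which fold secreted proteins, fell with adjusted p of 0.000448, 0.000627 and 0.000933, and lay at 0.01, 0.01 and 0.14 under pan-endocrine scaling. Hspa5, which encodes BiP, fell by 0.69 on the log2 scale (adjusted p = 0.0154), a call that ended without vehicle B or STZ 4 wk B and a value of 0.07 under pan-endocrine scaling. Sel1l (0.44) and Herpud1 (0.37), of the pathway that clears misfolded proteins, were among the 4 risers, but both calls ended under total-count scaling. In a fit of only these 4 libraries 1 of the 29 genes was lower, and without vehicle B 7.

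Lipid synthesis divided in the same way. Of 26 cholesterol and fatty acid synthesis genes 14 fell and 5 rose (median log2 -0.51, endocrine 0.22). Sqle, the squalene epoxidase of cholesterol synthesis, had 81.6 and 75.6 CPM in STZ 4 wk, against 134 and 149 CPM in vehicle (log2 -0.85 ± 0.10, adjusted p = 0.000211). The 2 stearoyl-CoA desaturases moved apart: Scd2 had 135 and 125 CPM in STZ 4 wk and 307 and 341 CPM in vehicle (log2 -1.32 ± 0.10), and Scd1 had 240 and 201 CPM in STZ 4 wk and 19.7 and 24.0 CPM in vehicle (log2 3.33 ± 0.15). Their adjusted p were 8.84e-06 and 5.42e-07. Heat-shock genes had 6 of 14 lower and 1, the small chaperone Cryab (log2 1.52), higher (median -0.30, endocrine 0.45), with Hsph1 at -0.82 and Hsp90ab1 at -0.45 (endocrine 0.29); Hspa1b fell as well (-0.88, adjusted p = 0.025), a call that ended without vehicle A or STZ 4 wk B, and reads of Hspa1a and Hspa1b cannot be separated with certainty.

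Energy genes rose. Of 24 respiratory chain genes 17 rose and 1 fell (median log2 0.79, endocrine 1.53). The ATP synthase subunit Atp5b had 885 and 880 CPM in STZ 4 wk, against 437 and 449 CPM in vehicle (log2 1.0 ± 0.09, adjusted p = 2.3e-05). Atp5o (log2 1.71), Sdhd (0.85) and the electron carrier Cycs (1.73) rose with adjusted p of 3.69e-06, 6.23e-05 and 0.000103. Acinar (18.1% of counts in STZ 4 wk, against 8.43% in vehicle), intestinal (1.74% against 0.0298%) and liver markers (1.07% against 0.00159%) rose in the same libraries, and their part in the energy genes was not tested. The single faller was Cox6a2, an isoform of cytochrome oxidase found in heart, muscle and beta cells, with 1.80 and 3.03 CPM in STZ 4 wk and 8.68 and 4.80 CPM in vehicle (log2 -1.48 ± 0.37, adjusted p = 0.0133), a call that ended without vehicle A or STZ 4 wk A. Of 22 glycolysis and hypoxia genes 13 rose and 0 fell (median log2 1.12, endocrine 1.86). Egln3, a hypoxia-induced hydroxylase, had 20.9 and 18.7 CPM in STZ 4 wk, against 0.447 and 0.556 CPM in vehicle (log2 5.30 ± 0.27, adjusted p = 9.07e-07), and Car9, another hypoxia target, 6.96 and 8.95 against 0.159 and 0.123 CPM (log2 5.81 ± 0.36).

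Genes that mature beta cells normally keep silent were far higher 4 weeks after STZ. Of 20 such disallowed and dedifferentiation genes 15 rose and 0 fell (median log2 2.41, endocrine 3.17). Aldh1a3 (chr7:66390893-66427477), a retinaldehyde dehydrogenase that marks dedifferentiated beta cells, had 62.8 and 70.0 CPM in STZ 4 wk, against 5.94 and 6.09 CPM in vehicle (log2 3.46 ± 0.13, adjusted p = 1.24e-07). At 24 h after STZ it had stood at 8.11 and 7.53 CPM, so that its rise lay between 24 h and 4 wk (log2 3.09, adjusted p = 1.68e-06). The group as a whole did not share this course. Of the 20 genes 5 were higher and 10 lower at 4 wk than at 24 h (median log2 -0.4), against 20.2% and 15.5% of all tested genes. Its share of counts was 0.12% at 24 h and 0.131% at 4 wk after STZ, and 0.0236% in vehicle. Ldha, lactate dehydrogenase, had 248 and 344 CPM in STZ 4 wk, against 14.2 and 11 CPM in vehicle (log2 4.55 ± 0.20), and its partner Slc16a1, the lactate carrier MCT1, 25.2 and 18.5 against 1.38 and 1.85 CPM (log2 3.76 ± 0.26). Cat, catalase (log2 4.72), Mylk, myosin light chain kinase (3.54), and Oat, ornithine aminotransferase (2.86), rose with adjusted p of 1.63e-08, 4.56e-08 and 1.28e-07. Ngn3, encoded by Neurog3 and a mark of endocrine progenitors, had 1.73 and 2.90 CPM in STZ 4 wk and 3.27 and 2.66 CPM in vehicle (log2 -0.36, adjusted p = 0.31). Liver, gut, immune and acinar cells express Cat, Ldha, Slc16a1, Mylk and Oat, and markers of all of them rose in the same libraries; their part in these values was not tested.

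Antioxidant genes rose in 13 of 21 cases with 0 lower (median log2 0.94, endocrine 1.67). Gsta4, a glutathione transferase that removes lipid peroxides, had 82.7 and 74.5 CPM in STZ 4 wk, against 0.635 and 0.793 CPM in vehicle (log2 6.78 ± 0.15, adjusted p = 1.04e-08). Gstm1 rose by 2.30 on the log2 scale and Txnip, the glucose-induced thioredoxin inhibitor, by 1.09 (adjusted p = 3.83e-06 and 2.68e-05). Of 17 genes of alkylation repair and NAD metabolism 5 rose and 0 fell (median log2 0.08, endocrine 0.83, and -0.16 with 5 higher and 2 lower under total-count scaling): the NAD-consuming enzymes Bst1 (7.78) and Cd38 (1.43), Nnmt (5.42) and Nadk (0.94) were those of smallest p. Liver, gut or immune cells express Gsta4, Gstm1, Nnmt and Bst1, and their markers rose in the same libraries; their part in these values was not tested.

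**Figure D3:**
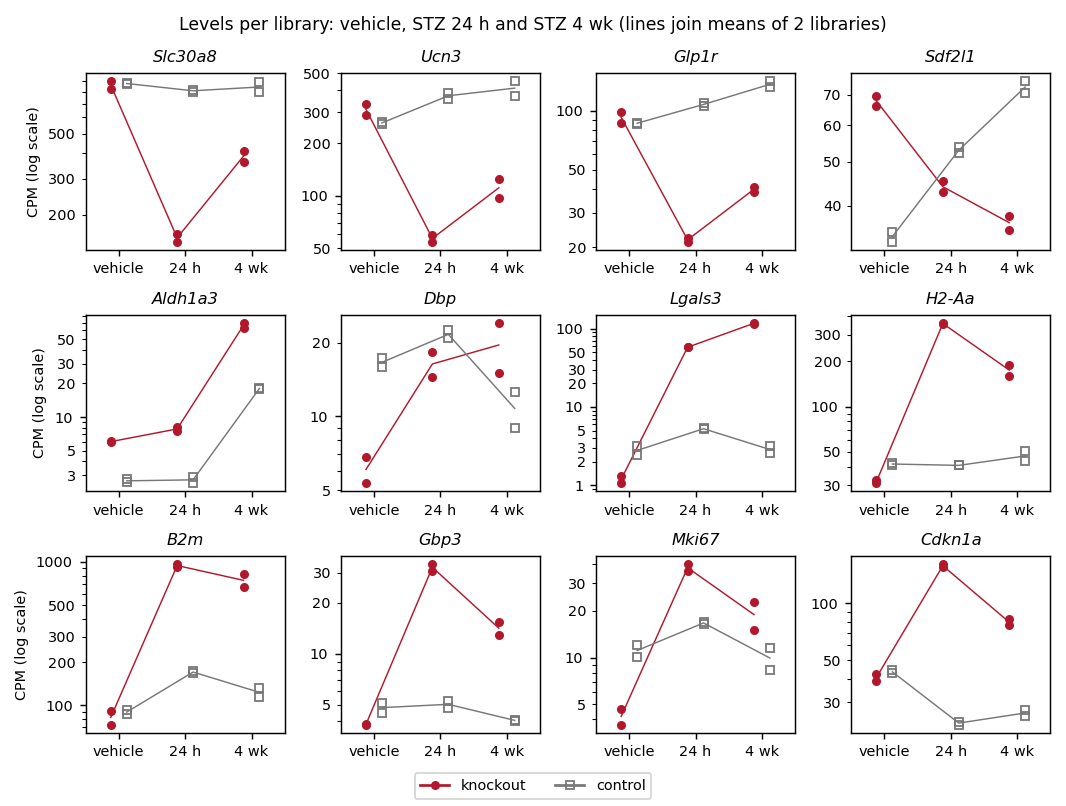
CPM on a log scale (vertical axes) of 12 genes in vehicle, STZ 24 h and STZ 4 wk (horizontal axes) in knockout (filled circles) and control (open squares); each point is 1 library and lines join means of 2. In knockout islets Slc30a8, Ucn3 and Glp1r are lowest at 24 h and remain below vehicle at 4 wk, Aldh1a3 is highest at 4 wk at 62.8 and 70.0 CPM, and H2-Aa, B2m, Gbp3, Mki67 and Cdkn1a are highest at 24 h.

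Macrophage transcripts were several-fold higher. Of 28 macrophage identity genes 26 rose and 0 fell (median log2 2.70, endocrine 3.42), and 27 of them together took 0.0658 ± 0.00202% of counts in STZ 4 wk, against 0.0115 ± 0.000437% in vehicle (SD, n = 2). Lyz2, the lysozyme of myeloid cells, had 92.1 and 84.4 CPM in STZ 4 wk, against 11 and 11.1 CPM in vehicle (log2 3.0 ± 0.12, adjusted p = 1.78e-07). Csf1r, the receptor for the macrophage growth factor, had 49.8 and 74.8 CPM in STZ 4 wk, against 8.66 and 6.73 CPM in vehicle (log2 3.02 ± 0.22, adjusted p = 8.2e-06). Mertk, a receptor for dying cells (log2 4.80), the transcription factor Maf (6.33) and the integrin Itgax (2.94) rose with adjusted p of 2.11e-07, 3.29e-07 and 1.67e-06, and Adgre1, the F4/80 antigen, by 1.76 (5.32e-05). The complement gene C1qa did not pass, with 15.5 and 35.6 CPM in STZ 4 wk and 14.4 and 10 CPM in vehicle (adjusted p = 0.0751). Compared with 24 h after STZ, 22 of the 28 were lower at 4 wk and 1, Mertk, higher (median log2 -1.85).

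Genes of lipid-handling phagocytes gave 15 higher and 2 lower of 23 (median log2 1.22, endocrine 1.98). Lgals3 (chr14:47373860-47386167), a lectin of activated macrophages that epithelia of the gut also make, had 115 and 119 CPM in STZ 4 wk, against 1.07 and 1.32 CPM in vehicle, 98.2-fold higher (log2 6.62 ± 0.20, adjusted p = 5.51e-08). Ctss (log2 2.38) and Lipa (2.91), a protease and a lipase of the lysosome, and Gpnmb (5.12) rose with adjusted p of 5.68e-07, 3.1e-06 and 4.22e-05. Trem2 was near the limit of detection at 0.330 and 0.469 CPM in STZ 4 wk and 0.238 and 0.0735 CPM in vehicle, and did not pass (adjusted p = 0.0588). The fallers were lipoprotein lipase, Lpl (log2 -1.08), and the granule and lysosome protein Cd63 (-0.47, endocrine 0.28), which beta cells express.

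All 10 MHC class II genes rose (median log2 3.22, endocrine 3.94). H2-Aa (chr17:34282751-34287771), a chain of the I-A molecule, had 160 and 190 CPM in STZ 4 wk, against 32.4 and 31.1 CPM in vehicle (log2 2.46 ± 0.12, adjusted p = 6.99e-07). H2-Ab1 (3.0), H2-Eb1 (2.40) and H2-Ob, typical of B cells (3.68), passed with adjusted p of 4e-05, 1.29e-05 and 3.06e-06. MHC class I and immunoproteasome genes rose in 14 of 18 cases with 0 lower (median log2 1.53, endocrine 2.26). B2m (chr2:122147687-122153082), the shared light chain of class I, had 818 and 670 CPM in STZ 4 wk, against 73.4 and 91.1 CPM in vehicle (log2 3.18 ± 0.15, adjusted p = 7.28e-07). Nlrc5, the activator of class I genes (log2 3.0), and the proteasome caps Psme1 (1.09) and Psme2 (1.17) rose with adjusted p of 0.00022, 4.78e-05 and 0.000134.

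Interferon-stimulated genes were mostly higher, with 28 of 36 up and 1 down (median log2 1.18, endocrine 1.93). Gbp3, a guanylate-binding protein induced by interferon gamma, had 15.4 and 12.9 CPM in STZ 4 wk, against 3.85 and 3.83 CPM in vehicle (log2 1.88 ± 0.14, adjusted p = 1.06e-05). Its neighbour Gbp2 (log2 2.08) and the GTPase Ifi47 (2.66) behaved alike, with adjusted p of 1.3e-05 and 1.58e-05. Cxcl9, a T-cell attractant, had 9.47 and 7.87 CPM in STZ 4 wk and 0 counts in both vehicle libraries, at least 754-fold higher when 3 counts over the vehicle group are set as its floor. Ifit1 had 18.7 and 15 CPM in STZ 4 wk, against 4.31 and 5.18 CPM in vehicle (log2 1.83 ± 0.18), and Isg15, a ubiquitin-like protein, 2.92 and 5.81 against 0.793 and 0.572 CPM (log2 2.67 ± 0.37). The single faller, the antiviral enzyme Rsad2, had 20.9 and 16.3 CPM in STZ 4 wk and 23.6 and 27.2 CPM in vehicle (log2 -0.45 ± 0.15, adjusted p = 0.0427, endocrine 0.31), a call that ended without vehicle B or STZ 4 wk B. At 4 wk 22 of the 36 were lower than at 24 h after STZ and 1, Ifit1, higher.

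Promoters of 5 of these genes are shown because they carry the interferon-stimulated response element that STAT and IRF factors bind. Promoter windows were matched for 27 of the 36 genes, and a pair of GAAA half-sites set 2 bases apart was found on either strand in 16 of them, against 3.99% of all symbols; overlapping matches count separately. Of these 16 genes 13 rose and 1 fell, and of the other 11 genes 9 rose. Capitals mark the element (as TTTC half-sites where it lies on the other strand), in stretches read 5′ to 3′ on the gene's strand.
Gbp3 (chr3:142559964-142560043, plus strand): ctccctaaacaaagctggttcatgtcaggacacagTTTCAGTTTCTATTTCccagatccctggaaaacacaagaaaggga
Gbp2 (chr3:142620569-142620648, plus strand): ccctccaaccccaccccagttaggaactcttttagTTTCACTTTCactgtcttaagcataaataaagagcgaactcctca
Ifit1 (chr19:34640750-34640848, plus strand): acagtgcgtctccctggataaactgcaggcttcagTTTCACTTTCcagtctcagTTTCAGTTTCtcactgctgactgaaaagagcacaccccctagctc
Isg15 (chr4:156200840-156200931, minus strand): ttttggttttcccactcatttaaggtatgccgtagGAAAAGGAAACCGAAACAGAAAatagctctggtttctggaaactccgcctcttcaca
Rsad2 (chr12:26456528-26456607, minus strand): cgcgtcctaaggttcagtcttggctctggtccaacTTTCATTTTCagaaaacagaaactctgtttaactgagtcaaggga
Gbp3 and Ifit1 hold 2 matches each, Isg15 3 that overlap, and Gbp2 and Rsad2 1 each, so that the gene called lower carries the element as well. That call, for Rsad2, ended without vehicle B or STZ 4 wk B and with the replicate block, and its sign turned under pan-endocrine scaling.

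Targets of NF-kB and chemokines rose. Of 26 NF-kB targets 14 rose and 0 fell (median log2 1.58, endocrine 2.34), and of 25 chemokine genes 18 rose and 0 fell (median log2 2.47, endocrine 3.17). The adhesion molecules Vcam1 and Icam1, which hold leukocytes at vessels, had log2 values of 2.15 ± 0.20 and 2.56 ± 0.25 (adjusted p = 4.37e-05 and 6.1e-05). Cxcl16 (log2 2.20), Cxcl14 (4.25), Ccl6 (4.20) and Ccl5 (9.08, with 6.85 and 6.83 CPM in STZ 4 wk and 0 and 0.0245 CPM in vehicle) rose with adjusted p of 1.12e-05, 3.55e-06, 6.99e-06 and 9.37e-05. Cxcl12, a stromal chemokine, had 37.7 and 35.7 CPM in STZ 4 wk, against 8.17 and 6.84 CPM in vehicle (log2 2.29 ± 0.12, adjusted p = 8.89e-07). Nfkbia, the feedback inhibitor of NF-kB, had 21.6 and 24.7 CPM in STZ 4 wk and 19.6 and 21.6 CPM in vehicle (log2 0.17, adjusted p = 0.247), and the monocyte attractant Ccl2 0.376 and 0.359 against 0.296 and 0.180 CPM (adjusted p = 0.286). Both had been higher at 24 h after STZ, at 47.4 and 45.8 CPM for Nfkbia and 4.51 and 4.53 CPM for Ccl2.

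Lymphocyte markers, near 0 in vehicle, were higher. All 19 T and B lymphocyte genes tested rose (median log2 6.16, endocrine 6.92, or 5.77 with the 7 genes at 0 counts in vehicle set at their bound), and their share of counts was 0.00784 ± 8.51e-05% in STZ 4 wk, against 0.000642 ± 0.00017% in vehicle. Cd4 had 13.3 and 13.2 CPM in STZ 4 wk, against 0.159 and 0.0490 CPM in vehicle (log2 6.96 ± 0.65, adjusted p = 4.54e-05). Cd3d, a chain of the T-cell receptor complex, had 3.10 and 2.26 CPM in STZ 4 wk and 0 counts in vehicle, at least 233-fold higher. Cd79b, a chain of the B-cell receptor complex, had 3.64 and 4.0 CPM in STZ 4 wk, against 0.180 and 0.0735 CPM in vehicle (log2 4.88 ± 0.42). At 24 h after STZ the lymphocyte share had been 0.0466 ± 0.000526%, with Cd79b at 61.6 and 61.4 CPM. Mmp9, from the neutrophil list, rose as well (log2 7.0, adjusted p = 8.97e-06), with 4 of 10 tested neutrophil genes higher and 0 lower. Intestine, its lymphoid tissue and pancreatic lymph nodes hold immune cells too, and markers of gut moved with all immune groups; their part in these results was not tested.

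Genes of dividing cells were higher. Of 28 replication and mitosis genes 22 rose and 0 fell (median log2 1.54, endocrine 2.28). Mki67, the Ki-67 antigen, had 22.7 and 15.1 CPM in STZ 4 wk, against 3.71 and 4.66 CPM in vehicle (log2 2.18 ± 0.24, adjusted p = 0.000125). Top2a (2.53), Bub1b (2.24) and Cdk1 (1.81), of DNA untangling, the spindle checkpoint and entry into mitosis, rose with adjusted p of 2.97e-05, 8.29e-05 and 0.000123. The D-type cyclins that beta cells use for division fell: Ccnd2 had 568 and 494 CPM in STZ 4 wk, against 991 and 1084 CPM in vehicle (log2 -0.97 ± 0.11, adjusted p = 0.000148), and Ccnd1 had 90.7 and 94.3 CPM against 149 and 159 CPM (log2 -0.74 ± 0.09, endocrine 0.01). The calls for Ccnd2 and Ccnd1 both ended under pan-endocrine scaling. Intestinal, macrophage and lymphocyte markers, of tissues that hold dividing cells, rose in the same libraries, as given for each list; their part in these values was not tested. Cdk6 (1.64) and the inhibitor Cdkn1c (1.06, a call that ended with the GC offset) were the 2 risers of the 9 cyclin D and CDK inhibitor genes.

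Of 24 p53 targets 8 rose and 1 fell (median log2 0.58, endocrine 1.35, and 8 and 4 under total-count scaling), where 24.1% of all tested genes rose and 11.7% fell. The group took 0.0908% of counts in STZ 4 wk and 0.0891% in vehicle. Compared with 24 h after STZ, 13 of the 24 were lower at 4 wk and 1 higher, against 15.5% and 20.2% of all tested genes. Cdkn1a, the cell-cycle inhibitor p21, had 76.4 and 82.6 CPM in STZ 4 wk, against 42.3 and 38.9 CPM in vehicle (log2 0.97 ± 0.10, adjusted p = 6.48e-05). The death genes Pmaip1 (4.84), Perp (2.76) and Fas (1.69) rose with adjusted p of 1.73e-05, 1.79e-05 and 0.000172, and Zmat3 fell by 0.42 on the log2 scale (endocrine 0.34). Mdm2, the p53 antagonist, differed between libraries of a group, at 62.8 and 52.8 CPM in STZ 4 wk and 57.7 and 17.4 CPM in vehicle (adjusted p = 0.447). Of 18 senescence and secretory genes 8 rose and 0 fell (median log2 0.90, endocrine 1.64), among them Tnfrsf1b (2.18) and Cxcl1 (2.64). Cdkn2a, the p16 locus, had at most 0.148 CPM in any of the 4 libraries and did not pass. Immediate early genes rose in 13 of 21 cases with 1, Nr4a1, lower (median log2 1.29, endocrine 2.03). Klf4 had 75.3 and 70.7 CPM in STZ 4 wk, against 5.97 and 7.44 CPM in vehicle (log2 3.44 ± 0.14), and Fos 43.9 and 50.7 against 16.6 and 17.3 CPM (log2 1.48 ± 0.11). Zfp36 (2.01) and Fosl2 (1.83) rose as well, and Nr4a1 fell by 1.14 (adjusted p = 0.0258), a call that ended without vehicle A or STZ 4 wk A. Gut, liver, acinar and immune markers rose in the same libraries, and their part in the p53, senescence and immediate early genes was not tested.

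Stellate, fibroblast and matrix genes rose in 22 of 32 cases with 1 lower, Loxl2 (log2 -0.50, endocrine 0.25; group median 1.33, endocrine 2.06). Fn1, fibronectin, had 76.8 and 96.0 CPM in STZ 4 wk, against 3.09 and 1.97 CPM in vehicle (log2 5.09 ± 0.25, adjusted p = 7.4e-07). Pdgfra, the PDGF receptor of fibroblasts (log2 3.49), Col14a1 (2.15) and vimentin, Vim (1.56), rose with adjusted p of 2.42e-07, 6.7e-07 and 3.16e-06. The main fibrillar collagen Col1a1 did not pass, with 7.45 and 21.2 CPM in STZ 4 wk and 7.58 and 3.68 CPM in vehicle (adjusted p = 0.0767). Fn1 is also a liver product. Of 18 endothelial genes 4 rose and 2 fell (median log2 0.39, endocrine 1.13 with 15 higher and 0 lower; 1 higher and 5 lower under total-count scaling), with Vwf at 2.76, Cdh5 at 0.53 (a call that ended without vehicle B or under total-count scaling) and Pecam1 at 0.48 (ended under total-count scaling) among the risers and Prox1 at -0.67 (endocrine 0.08) among the fallers. Kdr, the VEGF receptor of capillaries, had 139 and 139 CPM in STZ 4 wk and 144 and 154 CPM in vehicle (log2 -0.10, adjusted p = 0.408, endocrine 0.65 with adjusted p = 0.0055).

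**Figure D4:**
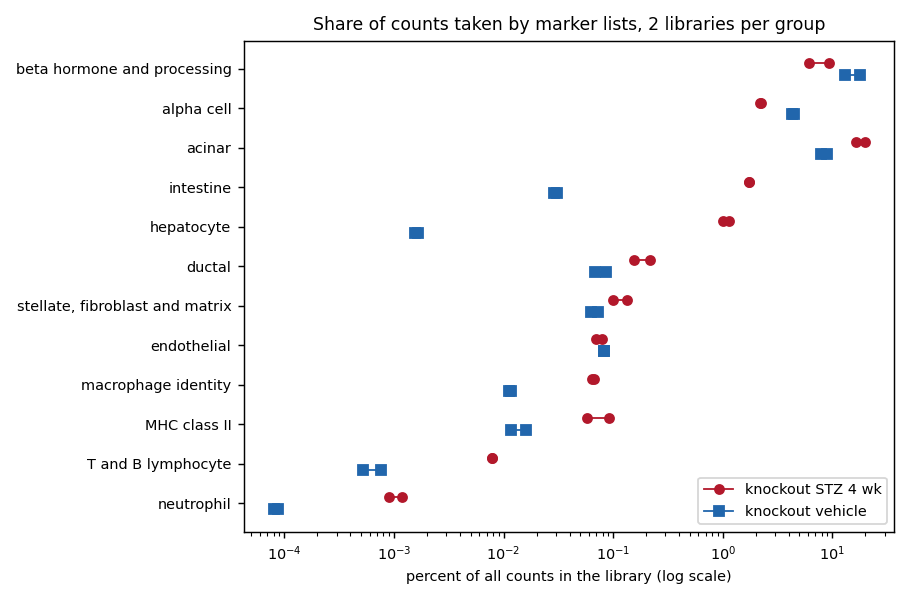
Percent of all counts in a library (horizontal axis, log scale) taken by 12 marker lists (rows) in knockout STZ 4 wk (circles) and knockout vehicle (squares); the 2 points of a group are its libraries. The intestinal list took 1.74% in STZ 4 wk and 0.0298% in vehicle on average, and the beta hormone list 7.75% and 15.5%.

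Transcripts of tissues outside the islet gave the largest changes of all. Of 22 intestinal genes 21 rose and 0 fell (median log2 12.36, endocrine 13.08), and their share of counts was 1.74 ± 0.003% in STZ 4 wk, against 0.0298 ± 0.00169% in vehicle (SD, n = 2) and 0.143 ± 0.00136% at 24 h after STZ. Slc5a1 (chr5:33104219-33162699), the intestinal glucose transporter SGLT1, had 1560 and 1477 CPM in STZ 4 wk, against 1.59 and 1.75 CPM in vehicle (log2 9.83 ± 0.17, adjusted p = 3.57e-09). Mttp, which loads fat onto lipoproteins, had 1544 and 1314 CPM in STZ 4 wk, against 21.1 and 25.8 CPM in vehicle (log2 5.93 ± 0.17). Fabp2, the intestinal fatty acid binding protein, had 3049 and 2068 CPM in STZ 4 wk, against 0.173 and 0.114 CPM in vehicle (log2 14.10 ± 0.46). Olfm4, of intestinal stem cells, did not pass (log2 -0.26, adjusted p = 0.292). Among called genes with a gene symbol and 2 CPM or more on average, the 15 with the largest gains had no count in either vehicle library. Enzymes and surface proteins of the intestinal brush border and epithelium lead them: Lct, lactase, had 709 and 918 CPM in STZ 4 wk (at least 70765-fold higher), Alpi, intestinal alkaline phosphatase, 441 and 651 CPM (47498-fold), Cdh17 723 and 543 CPM (55051-fold), Mep1b, a meprin protease, 494 and 372 CPM (37692-fold) and Aoc1, diamine oxidase, 150 and 198 CPM (15166-fold). Clca4b, Clca4a and Clca1, of a family expressed in gut epithelium, were at least 69975-fold, 17181-fold and 27333-fold higher, and Clec2h 27859-fold. The detoxifying enzymes Cyp3a25, Cyp2c29, Ces2c, Gsta1 and Adh6a of liver and gut lay between 15590-fold and 42599-fold, and Mug1, a plasma protease inhibitor made by liver, at 15045-fold. Averaging 2 CPM or more in STZ 4 wk and without a count in vehicle, 290 tested genes shared this pattern.

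Liver transcripts rose in 18 of 19 cases with 0 lower (median log2 11.82, endocrine 12.56), and without Ttr, which alpha cells also make, the list held 1.07 ± 0.104% of counts in STZ 4 wk, against 0.00159 ± 6.84e-05% in vehicle. Alb, serum albumin, had 3030 and 2515 CPM in STZ 4 wk, against 1.84 and 2.22 CPM in vehicle (log2 10.42 ± 0.22, adjusted p = 1.04e-08), with Serpina1a (8.05), Serpina3k (11.87) and Ahsg (11.84) beside it. Acinar genes rose in 28 of 30 cases with 0 lower (median log2 1.37, endocrine 2.10), and their share was 18.1 ± 2.28% in STZ 4 wk, against 8.43 ± 0.812% in vehicle. Pancreatic lipase, Pnlip, had 30500 and 29904 CPM in STZ 4 wk, against 10391 and 10623 CPM in vehicle (log2 1.52 ± 0.09, adjusted p = 2.3e-06), and Zg16 and Rnase1 had log2 values of 1.59 and 1.21. Ductal genes rose in 15 of 19 cases with 0 lower (median log2 1.61, endocrine 2.36), with Cftr (6.95), Car2 (5.36), Anxa2 (3.89) and Epcam (1.61) leading; gut epithelium expresses these 4 too. Reg genes, which injured acinar cells secrete, split: Reg1 (1.21), Reg3g (1.18) and the intestinal Reg4 rose, and Reg2 and Reg3a fell. Reg2 had 1125 and 820 CPM in STZ 4 wk, against 2092 and 2562 CPM in vehicle (log2 -1.26 ± 0.19, adjusted p = 0.000857). Whether these tissues were collected with the islets or their genes were switched on within them was not tested.

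By the same rule, the 15 largest losses were led by Atp6v0c (chr17:24163866-24169429), a subunit of the proton pump that acidifies granules and lysosomes, with 0.385 and 0.797 CPM in STZ 4 wk, against 61.0 and 36.5 CPM in vehicle (log2 -6.35 ± 0.45, adjusted p = 7.63e-06). Near-identical pseudogene copies exist for Atp6v0c, so its reads may have been assigned elsewhere and the value is uncertain; in the 4 control libraries of STZ 4 wk and vehicle it stood between 35.9 and 68.7 CPM. Msln, mesothelin, of the lining of the abdominal organs, had 11.5 and 20.9 CPM in STZ 4 wk, against 78.6 and 53 CPM in vehicle (log2 -2.02 ± 0.32, adjusted p = 0.00115). Tmem215, a membrane protein, had 59.0 and 56.7 CPM in STZ 4 wk, against 152 and 161 CPM in vehicle (log2 -1.44 ± 0.10, adjusted p = 4.52e-06). Adam32 (-1.97), Diras2 (-1.87), the imprinted gene Peg10 (-1.74), Stxbp5l, a regulator of exocytosis (-1.63), the cadherin Cdh7 (-1.57) and Cib3 (-1.54) lay between them. Runx1t1 (-1.68, adjusted p = 0.0227) lost its call without vehicle B and with the GC offset, and Hspa1a (-1.60, adjusted p = 0.0349), the inducible HSP70, without vehicle A or STZ 4 wk A. Trpm5, Ucn3, Cox6a2 and Esr1, given above, complete the 15.

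Control islets with floxed Bmal1 and no Cre were compared in the same way: 867 genes were higher (4.98%) and 698 lower (4.01%), 8.99% together, in control STZ 4 wk than in control vehicle. Scaled to total counts the control comparison gave 3852 higher and 455 lower, and scaled to pan-endocrine genes 590 higher and 1011 lower. These libraries share none with the knockout groups. The difference between the genotypes' responses was tested as an interaction, which 3258 genes passed in the positive direction (18.7%), where the knockout response was the higher, and 1280 in the negative (7.35%). That split turned with the scaling, to 2371 positive and 5832 negative with total counts and 8487 positive and 66 negative with pan-endocrine genes. Negative calls fell to 706 without control vehicle A and 745 without control vehicle B; they were 845 without knockout vehicle B and 3813 with the GC offset. Since transcripts of other tissues moved in control islets too (hepatocyte share 0.248 ± 0.0247% in STZ 4 wk, against 0.0198 ± 0.00126% in vehicle; acinar share 15 ± 1.21% against 26.5 ± 0.76%), their part in the interaction was not tested.

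Beta-cell genes lay lower in the knockout response than in the control response. The vehicle groups differed too, with the hormone and processing list at 15.5% of counts in knockout vehicle and 8.99% in control vehicle. At STZ 4 wk it took 7.75% in knockout and 15.7% in control islets. The acinar share was 8.43% in knockout vehicle and 26.5% in control vehicle. The interaction takes in these differences between the vehicle groups. In control islets 5 of the 17 transcription factors rose and 0 fell (median log2 0.50; endocrine 0.22 with 1 higher), and the interaction was negative for 12 and positive for 1 (median -1.34, endocrine -0.34 with 1 lower). Hormone and processing genes had 9 of 14 negative (median -1.08, endocrine -0.07) and exocytosis genes 12 of 18 (median -0.92, endocrine 0.08). Glp1r had 132 and 142 CPM in control STZ 4 wk, against 85.8 and 87.2 CPM in control vehicle, and its interaction was -1.89 ± 0.14 (adjusted p = 1.68e-05). Ucn3 had 373 and 451 CPM in control STZ 4 wk, against 263 and 258 CPM in control vehicle (interaction -2.15 ± 0.22, adjusted p = 0.000127). Gcg fell in both genotypes, by 0.81 on the log2 scale in control islets, and its interaction of 0.02 ± 0.13 did not pass (adjusted p = 0.965).

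In the unfolded protein group 7 of 29 genes rose in control islets and 2 fell (median log2 0.33; endocrine 0.08 with 4 higher and 3 lower), and the interaction was negative for 14 and positive for 3 (median -0.67, endocrine 0.34). Sdf2l1 had 70.7 and 75 CPM in control STZ 4 wk, against 35.1 and 33.4 CPM in control vehicle (interaction -1.97 ± 0.13, adjusted p = 1.01e-05), and Nbas, of transport between Golgi and endoplasmic reticulum, 174 and 172 against 102 and 102 CPM (interaction -1.66 ± 0.12, adjusted p = 1.71e-05). Clock outputs had 11 of 14 interactions positive and 1 negative (median 1.36), and the core genes 5 of 12 negative (median -0.66, endocrine 0.37). Dbp had 8.94 and 12.6 CPM in control STZ 4 wk, against 17.3 and 15.9 CPM in control vehicle (interaction 2.31, adjusted p = 0.00171), and Arntl 20.6 and 20.4 against 8.79 and 8.36 CPM (interaction -1.97, adjusted p = 2.71e-05).

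Immune and normally silent genes lay higher in the knockout response. Intestinal transcripts did as well, with a share of counts of 1.74% in knockout STZ 4 wk and 0.0648% in control STZ 4 wk. In vehicle that share was 0.0298% in knockout and 0.0252% in control islets. The part of gut tissue in the interactions below was not tested. The interaction was positive for 26 of 28 macrophage genes (median 2.24), all 10 MHC class II genes (2.68), 25 of 36 interferon-stimulated genes with 2 negative (1.14), 16 of 26 NF-kB targets (1.91) and 13 of 20 disallowed genes (2.29), with 0 negative in the others. Lgals3 had 2.55 and 3.18 CPM in control STZ 4 wk and 3.14 and 2.44 CPM in control vehicle (interaction 6.58, adjusted p = 5.28e-07). Aldh1a3 rose in both genotypes: it had 18.3 and 17.8 CPM in control STZ 4 wk, against 2.59 and 2.77 CPM in control vehicle (log2 2.75), and the interaction of 0.71 passed (adjusted p = 0.0117). Scd1 rose in both, with a log2 of 3.18 in control islets, and its interaction of 0.16 ± 0.20 did not pass (adjusted p = 0.647). Of the genes of smallest p in the interaction, Sprr2a1, a member of a family of near-identical epithelial genes, had 160 and 162 CPM in knockout STZ 4 wk and 0.0289 and 0.049 CPM in knockout vehicle. The same gene had 12.1 and 13.5 CPM in control STZ 4 wk and 36.5 and 35.7 CPM in control vehicle (interaction 13.49, adjusted p = 2.7e-08). Dnase1l3, a secreted DNase of macrophages and dendritic cells, had an interaction of 7.67 (adjusted p = 6.33e-08). Clca1 and Lypd8, of gut epithelium, passed as well, and the size of their fitted values depends on the prior count because both were at 0 in knockout vehicle. Replication genes had 15 of 28 positive and 0 negative (median 1.33).

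**Figure D5:**
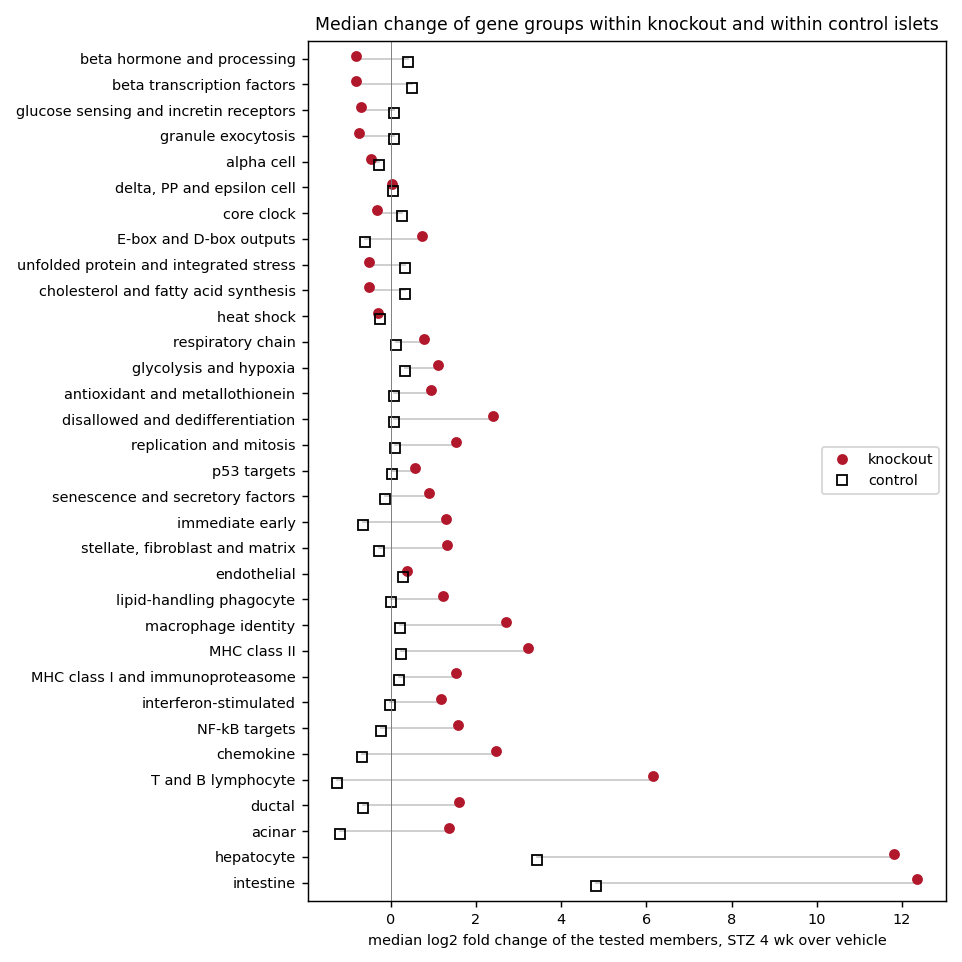
Median log2 fold change of STZ 4 wk over vehicle (horizontal axis) for 33 gene groups (rows) within knockout islets (filled circles) and within control islets (open squares). Beta-cell groups lie below 0 in knockout and above it in control, acinar and lymphocyte groups above 0 in knockout and below it in control, and liver and intestine above 0 in both; under pan-endocrine scaling the beta-cell medians in knockout are -0.08 to 0.05, and in control those of glucose sensing (-0.20) and granule exocytosis (-0.18) lie below 0.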

How the data were processed

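Islet mRNA was sequenced in paired ends with a stranded kit, per the labels' protocols. The authors deposited estimated counts per gene, made with StringTie 1.3.6 on an annotation of mm10 with the strand option, per the file headers. No aligner is named (not given in the sources used here). Each deposited count equals coverage times transcript length over 75, rounded up, summed over transcripts, so it is an expected count in units of a read length and not a number of fragments. Exon coverage of Arntl is signal that the authors' transcript files give, per the file headers. The table holds 0 columns of samples outside the series.

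The 12 libraries, 2 in each of 6 groups by their labels, were fitted together with edgeR 4.0.16 in R 4.3.3 (TMM scaling, filterByExpr, a quasi-likelihood test of group means, two-sided, Benjamini-Hochberg adjustment over 17411 genes, threshold 0.05, common dispersion 0.0493). Since n = 2 per group, the spread is shared over all groups. The median absolute gap between A and B was 0.424 on the log2 scale in knockout STZ 4 wk and 0.322 in knockout vehicle. It was 0.144 in control vehicle, 0.103 in control STZ 24 h, 0.339 in control STZ 4 wk and 0.137 in knockout STZ 24 h. The shared spread can therefore understate the spread of the groups compared. Alternatives were DESeq2 1.42.0 (size factors, Wald test), total-count and pan-endocrine scaling, no filter, a replicate block, a GC offset, 1 library left out at a time, and a fit restricted to the groups compared.

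Members and gene lists were chosen with earlier results of these data known, and no set test was run. Named genes are the 15 largest gains and 15 largest losses with at least 2 CPM and a gene symbol, in each list described the 4 genes with the lowest adjusted p, the 8 of smallest p in the interaction, fixed genes, and members whose role a sentence needed. Some genes that this rule takes in are not reported here. A gene at 0 counts in vehicle was given a floor of 3 counts over the group. Promoters are from RefSeq, GRCm38.p6. The letters A and B were not taken as pairs. Coordinates are mm10.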

Additional observations from a re-analysis of the deposited data

Results flagged for a closer look

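Each gene here was marked because the change from vehicle to STZ 4 wk differed between knockout and control islets in the test of the interaction, given as knockout minus control on the log2 scale. Transcripts of gut epithelium had the largest values, 19.84 for Clca1, 16.44 for Lypd8 and 13.49 for Sprr2a1, and those of Clca1 and Lypd8 depend on the prior count. Dnase1l3 stood at 7.67 and the phagocyte and gut lectin Lgals3 at 6.58.

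Reg2 had 1125 and 820 CPM in knockout STZ 4 wk, against 2092 and 2562 CPM in knockout vehicle, and 713 and 539 CPM in control STZ 4 wk, against 11774 and 12207 CPM in control vehicle. Its interaction was 3.0, with a fall in both genotypes. Nr1d1 had 2.59 (adjusted p = 0.00782), Mki67 2.34, Dbp 2.31, Cdkn1a 1.69 and Aldh1a3 0.71. Cdkn1a had 25.3 and 27.4 CPM in control STZ 4 wk, against 44.2 and 42.7 CPM in control vehicle, and lay higher after STZ in knockout islets.

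Values below 0 were -2.15 for Ucn3, -1.97 for Sdf2l1, -1.97 for Arntl, -1.89 for Glp1r, -1.88 for Tmem215, -1.66 for Nbas, -1.35 for Esr1 and -0.62 for Slc2a2. Esr1 had under 1 CPM in the control libraries of STZ 4 wk and vehicle, so its value rests on the knockout libraries.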

How the results depend on the processing

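The count of called genes, 6244, was 6195 with DESeq2 size factors, 6040 without the filter and 7203 with DESeq2's Wald test. A GC offset called 9764 genes (4642 lower), and with the replicate block 9550 (4558 lower). Total-count scaling called 4409 genes lower, and pan-endocrine scaling 9298 higher and 43 lower. A fit of only the 4 libraries called 2979 genes, 2772 higher and 207 lower. Leaving out 1 library gave 4531 to 6756 genes, with 3525 to 4318 higher and 1006 (without vehicle B) to 2438 lower. The interaction, 4538 genes, moved to 8203 under total-count scaling, 8553 under pan-endocrine scaling, 8223 with the GC offset and 7991 with it and the replicate block, and lay between 3379 and 4788 without 1 library. STZ 4 wk against STZ 24 h, 6211 genes, moved to 11895 under pan-endocrine scaling, 9421 with the GC offset and 4069 with only the libraries compared, and lay between 3891 (without STZ 24 h B; 4055 without STZ 24 h A) and 6435. The cause of these shifts was not tested.

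The letters A and B were not taken to pair the samples, since no label says so and the gap between A and B correlated over genes at -0.391 between knockout STZ 4 wk and knockout vehicle. For knockout STZ 4 wk it was 0.478 with control STZ 4 wk and 0.205 with knockout STZ 24 h, and the 15 pairs of groups ran from -0.391 to 0.478. The replicate block called 5752 genes in the comparison of STZ 4 wk with vehicle, 4176 in the interaction and 5715 against 24 h. With the letters of knockout vehicle crossed, a pairing chosen after seeing the data, it called 7297.

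Of 213 called named genes, 195 kept their call and direction without any 1 library, 204 under total-count scaling, size factors, no filter, the Wald test, the GC offset and both blocks, 168 in the fit of only the libraries compared and 157 under pan-endocrine scaling. Among named genes called in the main fit or under that scaling, it turned the sign of 25: Arntl 0.03, Foxa2 0.05, Slc2a2 0.34, Vamp2 0.01, Syt13 0.08, Slc7a2 0.11, Sstr3 0.04, Cd63 0.28, Rsad2 0.31, Zmat3 0.34, Ccnd1 0.01, Loxl2 0.25, Prox1 0.08, Kdr 0.65, Cry1 0.31, Per2 0.36, Cry2 0.30, Bhlhe41 0.17, Pdia6 0.01, Pdia4 0.01, Calr 0.14, Hspa5 0.07, Hsp90ab1 0.29, Ncam1 0.23 and Mbp 0.32. Genes called in neither fit were not counted here. Depth, from 101772241 to 126637768 counts in the 4 libraries, limits genes near 0 CPM; the number of libraries and the gap between A and B limit the rest.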

Other observations

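Acute phase proteins of liver rose with albumin. Of 12 genes 11 rose and 0 fell (median log2 6.92, or 5.35 with the 4 genes at 0 counts in vehicle set at their bound): Orm1, an acid glycoprotein, had 23.9 and 18.1 CPM in knockout STZ 4 wk and 0 counts in knockout vehicle, at least 1826-fold higher. Hp, haptoglobin, had 35.7 and 68.2 CPM in knockout STZ 4 wk, against 0.0649 and 0.139 CPM in knockout vehicle (log2 9.0), with Orm2 at 9.51 and Fgb at 7.47. Of 8 adipocyte genes 5 rose and 0 fell (median log2 2.30), with Pck1 at 11.22, Cidec at 9.17, Lipe at 3.0 and Fabp4 at 1.59. Liver and gut express Pck1 as well.

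Of 12 Schwann and neural genes 1 rose and 3 fell (median log2 -0.05, 0.69 under pan-endocrine scaling). Erbb3, a receptor of Schwann cells and epithelia, had 51.8 and 67.1 CPM in knockout STZ 4 wk, against 4.36 and 2.94 CPM in knockout vehicle (log2 4.02, adjusted p = 2.21e-06). Cntnap2 (-0.79), Ncam1 (-0.52) and Mbp (-0.42) fell, and the last 2 turned positive under pan-endocrine scaling (0.23 and 0.32).

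Of 11 tested genes on the stomach list 3 rose and 2 fell. Lypd8, given above as a gene of gut epithelium, was at least 12763-fold higher. Gkn3 was at least 12.7-fold higher, at 0.174 and 0.117 CPM in knockout STZ 4 wk. Tff2, of mucous cells, had a log2 of 1.61, and Atp4a, the acid pump, of -1.01. Retnlg (at least 120-fold higher), Csf3r (log2 2.54) and Cxcr2 (5.30) were the neutrophil genes that rose beside Mmp9. Muscle and erythroid genes had 4 of 9 higher and 0 lower (median log2 2.87, or 2.38 with 2 genes at their bound), Alas2 (2.88), Myh11 (1.73), Cnn1 (10.51) and Des (2.38).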
